A study of Mus musculus with 7 samples.

Results

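The 10 genes described here encode transcription factors of mesenchymal cells and of the epithelial-to-mesenchymal transition (EMT): Prrx1, Prrx2, Twist1, Twist2, Snai1, Snai2, Zeb1, Zeb2, Osr1 and Meox2. They were chosen by name, with earlier results of these data known. They are 10 of the 19938 genes measured through probe sets with 1 gene symbol. Each of the 10 had 1 such probe set. RNA of mouse cells was hybridised to 7 Affymetrix arrays, and all values are log2 expression as deposited. The KSR medium held 3 lines of induced pluripotent stem (iPS) cells, named O4-1, O4-2 and O4-4 and described in the labels as fibroblasts infected by Oct4, with 1 array each. A further array came from O4-1 in N2B27 medium with 2i, which blocks the kinases MEK and GSK3. OG2 embryonic stem (ES) cells, also kept in N2B27 with 2i, filled 1 array. Mouse embryonic fibroblasts (MEFs) were taken from 129/OG2 embryos at 13.5 dpc and filled 1 array in the medium iCD1 and 1 in FBS. The strain of the iPS lines is not given in the labels used here.

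Groups follow the sample titles and growth conditions, and other label fields differ from them: every description speaks of iPS cells soon after infection, the ES source names fibroblasts, and the iPS sources name iCD1. Markers of the cell types were set against these labels. All 12 pluripotency markers rose in the KSR lines relative to MEFs (limma), with a mean log2 value of 9.52 to 9.90 on the 5 iPS and ES arrays, against 4.37 and 4.40 on the MEF arrays. Of 12 fibroblast markers 10 fell, with a mean of 6.01 to 7.05 on the iPS and ES arrays, against 9.73 in MEFs in iCD1 and 8.90 in MEFs in FBS. Dcn and Lum overlapped between the cell types. Dcn had 6.99 in O4-2, 7.54 in O4-4 and 7.25 in ES cells, against 6.78 in MEFs in FBS. Lum had 6.87 in O4-4 and 6.365 in ES cells, against 6.06 in MEFs in FBS. Col1a1 stayed at 8.90 to 10.32 on the iPS and ES arrays. Whether fibroblasts remained in these cultures was not tested. The mean of each of 7 other marker lists (macrophage, endothelium, muscle, cartilage and bone, keratinocyte, neural crest, primitive streak and endoderm) lay between 4.03 and 5.50 on all 7 arrays. Single genes of these lists did change in the KSR lines, 4 higher and 6 lower of 51 (limma), against 12.1% and 14.3% of all genes. Those named here were chosen after their values were seen. Pecam1, an endothelial adhesion gene also known in mouse ES cells, rose by 3.57 ± 0.32, Erbb3 rose by 1.58 ± 0.14 and the cartilage collagen gene Col2a1 fell by 2.18 ± 0.15. Col2a1 had 5.94, 6.19 and 6.29 in the KSR lines, 5.86 in iPS cells in 2i and 6.04 in ES cells, against 7.66 in MEFs in iCD1 and 8.98 in MEFs in FBS. The part of such cells in the results was not tested. In such bulk samples, fewer cells of a type and less RNA per cell cannot be told apart.

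As background, mesenchymal cells such as fibroblasts migrate singly and lay down matrix, while epithelial cells are held together by E-cadherin and tight junctions. The Snail, ZEB and Twist factors move cells toward the mesenchymal state, the Snail and ZEB factors as repressors that bind E-box DNA in epithelial genes such as Cdh1. Reprogramming of fibroblasts to pluripotent cells is known to pass the other way, through a mesenchymal-to-epithelial transition. The paired-type homeobox genes Prrx1 and Prrx2, the zinc finger gene Osr1 and the homeobox gene Meox2 mark and pattern embryonic mesenchyme of limb, face, kidney and somite.

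All 10 factors were lower on every iPS and ES array than on either MEF array. The gap between the highest iPS or ES value and the lowest MEF value ran from 0.62 for Meox2 to 3.72 for Prrx1 on the log2 scale. Of all genes 22% separated the arrays in this direction. In the KSR lines 9 of the 10 fell relative to the mean of both MEF arrays (limma, adjusted p under 0.05 over all genes), where 14.3% of all genes fell, and Meox2 did not pass. Their median difference was -2.47, against 0 over all genes, of which the 10th percentile was -0.96. In iPS cells in 2i 8 of the 10 fell, against 8.85% of all genes, and in ES cells 8 of the 10 fell, against 7.46%. Zeb1 and Meox2 did not pass in either. The median differences were -2.72 in iPS cells in 2i and -2.56 in ES cells. These 3 comparisons share both MEF arrays, and the error of each came from the spread of the 3 KSR lines, so they are not independent of each other. Cell type and medium cannot be told apart here, because MEFs were kept in neither KSR nor 2i. The calls in iPS and ES cells in 2i needed all 3 KSR lines, and those in the KSR comparison needed O4-1 and O4-2. Without O4-1 or without O4-2 limma called none of the 10 in any of the 3 comparisons, nor any other gene. In the KSR comparison the adjusted p of the 10 was then 0.0833 to 0.221 and 0.0503 to 0.117 (limma). There 5804 and 6924 genes had an unadjusted p under 0.05. Without O4-4 limma called 9 in the KSR comparison and 0 in the others. A fit without 1 of the lines has fewer residual degrees of freedom.

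**Figure D1:**
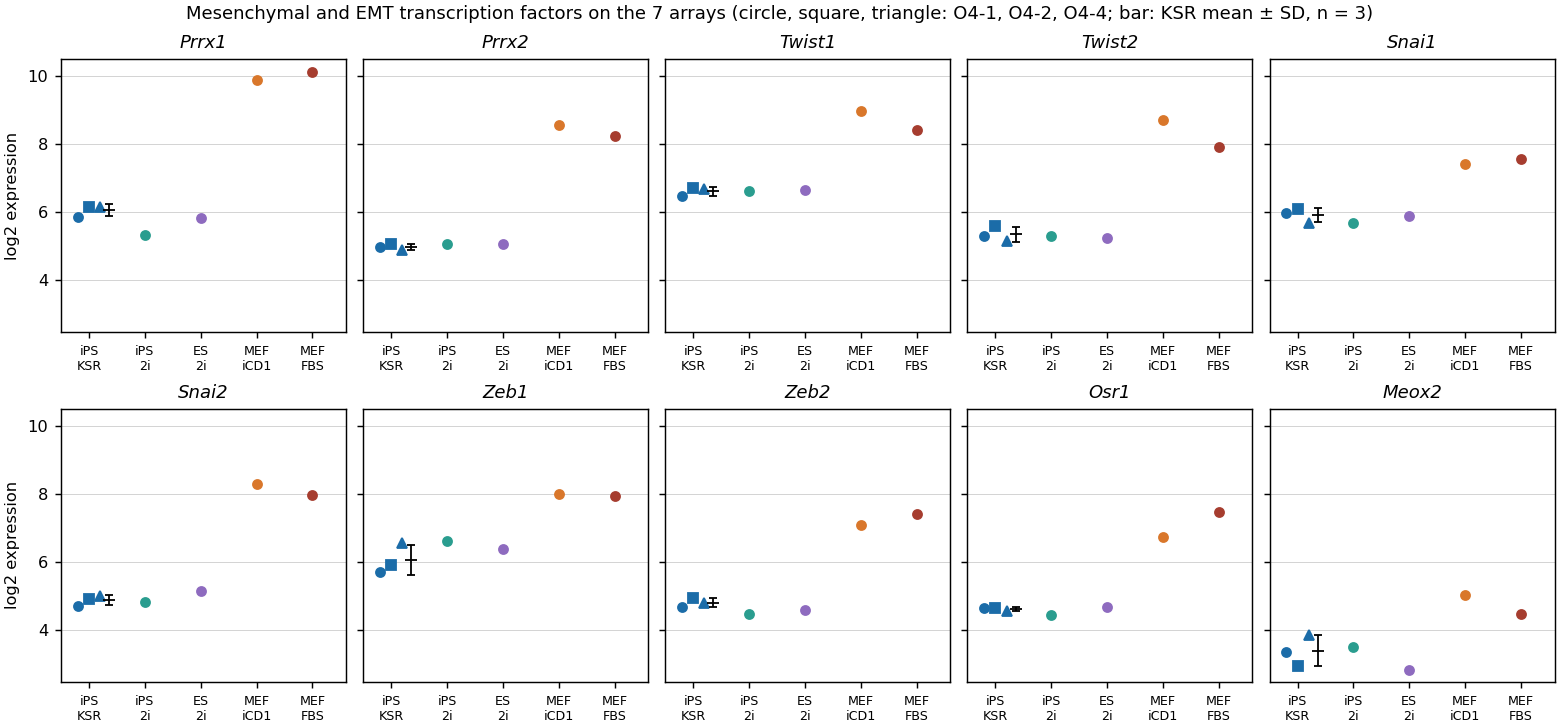
Log2 expression (vertical axis) of each of the 10 factors on the 7 arrays: 3 iPS lines in KSR (circle O4-1, square O4-2, triangle O4-4, with their mean ± SD, n = 3), iPS line O4-1 in 2i, ES cells in 2i, MEFs in iCD1 and MEFs in FBS. In every panel all iPS and ES points lie below both MEF points, with the widest gap for Prrx1 (3.72) and the narrowest for Meox2 (0.62).

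The paired-type homeobox genes had the largest differences. Prrx1 had 5.87, 6.16 and 6.16 in KSR lines O4-1, O4-2 and O4-4, 5.33 in iPS cells in 2i and 5.84 in ES cells, against 9.88 in MEFs in iCD1 and 10.14 in MEFs in FBS. Its lowest value was that of iPS cells in 2i. The level was 15.4-fold lower than in MEFs in the KSR lines, 25.6-fold lower in iPS cells in 2i and 18.0-fold lower in ES cells, with log2 differences of -3.94 ± 0.14, -4.68 ± 0.19 and -4.17 ± 0.19 (SE; limma, adjusted p = 0.00659, 0.0147 and 0.0187). Prrx2, its paralogue with overlapping roles in limb and craniofacial mesenchyme, had 4.97, 5.08 and 4.88 in the KSR lines, 5.06 in iPS cells in 2i and 5.07 in ES cells, against 8.55 in MEFs in iCD1 and 8.24 in MEFs in FBS. Its 5 iPS and ES values spanned 0.20, the smallest range among the 10 genes. Prrx2 fell by 3.42 ± 0.10 in the KSR lines (10.7-fold; limma, adjusted p = 0.00659), with differences of -3.34 ± 0.14 in iPS cells in 2i and -3.32 ± 0.14 in ES cells.

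Both Twist genes, which encode basic helix-loop-helix factors of mesenchyme that pair with E-proteins, fell in all 3 comparisons. Twist1 had 6.47, 6.70 and 6.69 in the KSR lines, 6.61 in iPS cells in 2i and 6.66 in ES cells, against 8.98 in MEFs in iCD1 and 8.41 in MEFs in FBS. Twist2 had 5.31, 5.59 and 5.16 in the KSR lines, 5.29 in iPS cells in 2i and 5.26 in ES cells, against 8.71 in MEFs in iCD1 and 7.93 in MEFs in FBS. For both genes the iPS and ES values lay close together, within 0.23 for Twist1 and 0.43 for Twist2, and the MEF array in iCD1 was the higher of the MEF pair. In the KSR lines Twist1 fell by 2.08 ± 0.12 and Twist2 fell by 2.96 ± 0.17 (SE; limma, adjusted p = 0.00754 and 0.00747), which is 4.21-fold and 7.79-fold. Their differences in iPS cells in 2i were -2.08 ± 0.16 and -3.02 ± 0.23, and in ES cells -2.04 ± 0.16 and -3.06 ± 0.23.

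Of the Snail zinc finger repressors, Snai2 (Slug) had the larger difference. Snai2 had 4.70, 4.92 and 5.01 in the KSR lines, 4.81 in iPS cells in 2i and 5.15 in ES cells, against 8.30 in MEFs in iCD1 and 7.97 in MEFs in FBS. It was 9.57-fold lower in the KSR lines, a log2 difference of -3.26 ± 0.13 (limma, adjusted p = 0.00659), with differences of -3.33 ± 0.18 in iPS cells in 2i and -2.98 ± 0.18 in ES cells. Snai1 (Snail) had 5.99, 6.10 and 5.70 in the KSR lines, 5.69 in iPS cells in 2i and 5.89 in ES cells, against 7.41 in MEFs in iCD1 and 7.55 in MEFs in FBS. The gap between its highest iPS or ES value and its lowest MEF value was 1.31, narrower than for any of the 10 but Meox2. Snai1 fell by 1.55 ± 0.16 in the KSR lines (2.93-fold; limma, adjusted p = 0.0121). It also fell in iPS cells in 2i (-1.79 ± 0.22, adjusted p = 0.0265) and in ES cells (-1.60 ± 0.22, adjusted p = 0.0350). With 1 MEF array alone the ES call of Snai1 was lost (adjusted p = 0.0563 against MEFs in FBS and 0.0525 against MEFs in iCD1).

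The promoters were searched for the E-box that Snail and ZEB factors bind, CACCTG or CAGGTG on the other strand, in the 250 bases before each start in RefSeq (GRCm38.p6). A window was at hand for 7 of the 10 factors, and 1 of them, Snai1, held the E-box (14.3%). It was held by 11 of 15 epithelial genes with a window (73.3%) and by 19.4% of the 27025 genes with any window. The epithelial list was drawn up from genes known as such targets, so its share is no independent evidence. A match describes letters in the window and is not a measured binding site. The window of Snai1 is printed as the only one among the factors with a match. Epcam and Lsr, which rose in the KSR lines by 4.50 and 1.73, stand for the epithelial genes, Lsr as the one with the most matches (4). They cover chr2:167537945-167538194 on the plus strand, chr17:87635729-87635978 on the plus strand and chr7:30973470-30973719 on the minus strand, each from 5′ to 3′ with E-boxes in capitals.
Snai1: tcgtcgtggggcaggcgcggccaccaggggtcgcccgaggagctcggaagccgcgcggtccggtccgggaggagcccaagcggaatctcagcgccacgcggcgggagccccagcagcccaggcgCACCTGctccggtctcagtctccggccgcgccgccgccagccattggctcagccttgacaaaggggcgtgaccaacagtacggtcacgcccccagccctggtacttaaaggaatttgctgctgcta
Epcam: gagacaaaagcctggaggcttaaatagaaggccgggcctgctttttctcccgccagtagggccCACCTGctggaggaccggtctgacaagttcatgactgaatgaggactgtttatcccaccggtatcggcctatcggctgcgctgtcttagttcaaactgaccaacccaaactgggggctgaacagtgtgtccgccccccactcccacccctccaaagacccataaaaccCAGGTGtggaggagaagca
Lsr: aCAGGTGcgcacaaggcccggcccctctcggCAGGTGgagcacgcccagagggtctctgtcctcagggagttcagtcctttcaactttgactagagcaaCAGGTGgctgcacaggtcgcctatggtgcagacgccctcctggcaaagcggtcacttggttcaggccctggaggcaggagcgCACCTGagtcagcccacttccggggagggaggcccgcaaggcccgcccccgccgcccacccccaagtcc
All 7 factors with a window lay lower in the KSR lines than in MEFs, with or without a match.

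The ZEB genes encode E-box repressors with zinc finger clusters at both ends and a homeodomain between them. Zeb2 (Sip1) had 4.67, 4.94 and 4.78 in the KSR lines, 4.46 in iPS cells in 2i and 4.57 in ES cells, against 7.09 in MEFs in iCD1 and 7.40 in MEFs in FBS. It fell by 2.45 ± 0.12 in the KSR lines (5.45-fold; limma, adjusted p = 0.00667), with differences of -2.78 ± 0.16 in iPS cells in 2i and -2.67 ± 0.16 in ES cells. The 5 pluripotent values of Zeb1 spanned 0.89, those of Zeb2 0.48. Zeb1 had 5.71 and 5.91 in KSR lines O4-1 and O4-2 but 6.56 in O4-4, 6.60 in iPS cells in 2i and 6.37 in ES cells, against 7.98 in MEFs in iCD1 and 7.93 in MEFs in FBS. Its highest iPS value and its lowest were both from line O4-1, in 2i and in KSR. Zeb1 fell by 1.89 ± 0.31 in the KSR lines (3.72-fold; limma, adjusted p = 0.0275), and its differences of -1.35 ± 0.42 in iPS cells in 2i and -1.59 ± 0.42 in ES cells did not pass (adjusted p = 0.123 and 0.0999). With 1 MEF array alone the KSR call of Zeb1 was lost too (adjusted p = 0.0641 against MEFs in FBS and 0.0524 against MEFs in iCD1).

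The miR-200 family and miR-205 are known to bind the messages of Zeb1 and Zeb2 through their seeds, bases 2 to 8 of the mature microRNA. The sequences (RefSeq, GRCm38.p6) are shown with seeds in capitals because the family falls into 2 seed groups that differ by 1 base: miR-200a and miR-141 share AACACUG, and miR-200b and miR-200c share AAUACUG.
mmu-miR-200a-3p: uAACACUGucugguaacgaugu
mmu-miR-141-3p: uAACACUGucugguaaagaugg
mmu-miR-200b-3p: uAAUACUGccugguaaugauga
mmu-miR-200c-3p: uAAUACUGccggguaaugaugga
mmu-miR-205-5p: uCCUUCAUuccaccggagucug
Probe sets named for the 5 precursor genes were on the array, and none passed in any of the 3 comparisons with MEFs. Mir200b had 3.25, 3.16 and 3.13 in the KSR lines, 2.92 in iPS cells in 2i and 3.27 in ES cells, against 2.56 in MEFs in iCD1 and 3.16 in MEFs in FBS, so that the groups overlapped (0.32 ± 0.09 in the KSR lines; limma, adjusted p = 0.0839). The other 4 lay between -0.06 and 0.15 in the KSR lines relative to MEFs. Mir200b, Mir200c, Mir141 and Mir205 lay low on every array. They were below the 95th percentile of the odorant, vomeronasal and taste receptor genes described below (4.02 to 4.26), and Mir200a was above it. Differences at such levels may be understated. The array assay was made for long RNA, and mature microRNA was not measured.

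Osr1, a zinc finger gene of intermediate and lateral plate mesoderm, had 4.65, 4.65 and 4.55 in the KSR lines, 4.45 in iPS cells in 2i and 4.66 in ES cells, against 6.74 in MEFs in iCD1 and 7.46 in MEFs in FBS. The 3 KSR lines lay within 0.11, the narrowest range of the 10, while the MEF arrays were 0.72 apart. Osr1 fell by 2.49 ± 0.09 in the KSR lines, and differed by -2.65 ± 0.12 in iPS cells in 2i and -2.44 ± 0.12 in ES cells (limma, adjusted p = 0.00659, 0.0147 and 0.0187). Meox2, a homeobox gene of somite and limb muscle precursors, spread most widely of the 10 over the iPS and ES arrays, by 1.02. Meox2 had 3.36, 2.94 and 3.86 in the KSR lines, 3.51 in iPS cells in 2i and 2.84 in ES cells, against 5.02 in MEFs in iCD1 and 4.48 in MEFs in FBS. Its differences of -1.36 ± 0.32 in the KSR lines, -1.24 ± 0.43 in iPS cells in 2i and -1.91 ± 0.43 in ES cells did not pass (limma, adjusted p = 0.0580, 0.149 and 0.0754). In the KSR comparison Meox2 passed with quantile normalization, a trended and robust prior, or the MEF arrays as 1 group (limma, adjusted p = 0.0234 to 0.0307). The last of these takes the MEF media as replicates. With all iPS and ES arrays as 1 group against both MEF arrays, a different comparison, Meox2 also passed (-1.45, limma, adjusted p = 0.00513). That fit takes different lines, cell types and media as replicates and holds line O4-1 in both KSR and 2i.

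**Figure D2:**
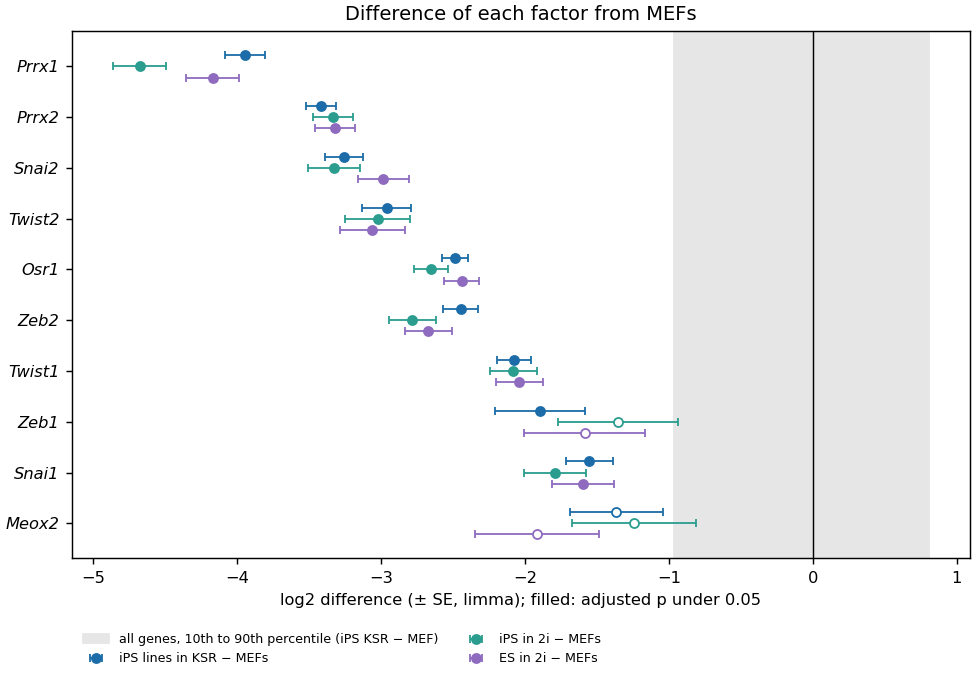
Log2 difference of each factor from the mean of both MEF arrays (horizontal axis), for the iPS lines in KSR and for the iPS and ES cells in 2i, with the SE from limma; filled points have an adjusted p under 0.05, and the grey band is the 10th to 90th percentile of all genes in the KSR comparison (-0.96 to 0.81). All points lie left of the band, and the open points belong to Zeb1 and Meox2.

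The levels that remained in iPS and ES cells were read against 1228 odorant, vomeronasal and taste receptor genes, which cultured cells of these kinds are not known to use. Probe sets differ in brightness, so this describes where a value lies on an array and not how much RNA a gene has. On the 5 iPS and ES arrays the 95th percentile of the receptor genes was 4.11 to 4.26. There 9 of the 10 factors lay above it and Meox2 below it on each array. The median of all probe sets on these arrays was 4.97 to 5.03, so most probe sets lay above that percentile too. The highest receptor gene was at 6.75 to 7.14 on these arrays, above all 10 factors. On the MEF arrays, where the percentile was 4.02 in iCD1 and 4.21 in FBS, all 10 lay above it. The median of all probe sets was 5.01 on both MEF arrays.

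No factor passed the test between pluripotent cultures. In iPS cells in 2i against the KSR lines limma called 0 of the 10 and 0 of all genes (0%), with 1339 genes at an unadjusted p under 0.05, and in ES cells against the KSR lines it also called 0 of the 10 and 0 of all genes, with 1746. Line O4-1 stands on both sides of the iPS comparison, which the fit does not take into account. Prrx1 differed by -0.74 ± 0.17 in iPS cells in 2i (95% interval -1.24 to -0.23, unadjusted p = 0.0169, adjusted p = 0.727, limma). It was the only one of the 10 with an interval that leaves out 0 in either comparison. All 12 fibroblast markers also had negative differences in iPS cells in 2i against the KSR lines (median -0.675). So did 23 of 25 mesenchymal effector genes (median -0.68), a list that shares genes with those markers. None of them passed, and whether Prrx1 moved with them was not tested. Zeb1 differed by 0.54 ± 0.40 in iPS cells in 2i (interval -0.60 to 1.69) and by 0.31 ± 0.40 in ES cells (-0.84 to 1.46), so that a 2-fold higher level lies within both intervals. The intervals were narrowest for Osr1, -0.49 to 0.16 in iPS cells in 2i and -0.28 to 0.37 in ES cells. In the 2i medium itself, with 1 array of each and no test, ES cells differed from iPS cells by 0.51 for Prrx1 and by 0.34 or less in size for 8 others. Meox2 differed by -0.67, with both values below the 95th percentile of the receptor genes. None reached 2-fold, which 0.978% of all genes did. Within line O4-1, also without a test, Zeb1 was 0.89 higher in 2i than in KSR and Prrx1 was 0.54 lower, and no factor reached 2-fold, which 1.43% of all genes did.

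The KSR lines gave the only replicate spread. Over all genes the median SD of the 3 lines was 0.16 and its 90th percentile 0.36. Zeb1 (0.45) and Meox2 (0.46) lay above that percentile, and the other 8 had SDs of 0.06 to 0.22.

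Between the MEF media the factors differed in both directions, and each by less than its own difference between cell types. MEFs in iCD1 had higher values than MEFs in FBS for Twist2 (0.78, 1.72-fold), Twist1 (0.57), Meox2 (0.55), Snai2 (0.33), Prrx2 (0.31) and Zeb1 (0.05). They had lower values for Osr1 (-0.72, a ratio of 0.607), Zeb2 (-0.31), Prrx1 (-0.25) and Snai1 (-0.15). Each group was 1 array, so these differences have no replicate check and no test. None of the 10 reached 2-fold, against 2.7% of all genes, and Twist2 and Osr1 reached 1.5-fold, against 10.3%. The median over the 10 was 0.18, against -0.02 over all genes. Set against the replicate spread of another cell type, the difference was larger than the range of the 3 KSR lines for 6 of the 10 (Prrx2, Twist1, Twist2, Snai2, Zeb2 and Osr1), and for 36.3% of all genes. As a share of the same gene's difference between KSR lines and MEFs it ran from 2.85% for Zeb1 to 29.0% for Osr1 over 9 of the 10. For Meox2 it was 40.0%, with iPS values below the 95th percentile of the receptor genes, so that the fall it is a share of may be understated. The fibroblast markers stood at a mean of 9.73 in iCD1 against 8.90 in FBS, and 5 of the 12 were 2-fold or more higher in iCD1. Their part in the factors' differences was not tested.

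**Figure D3:**
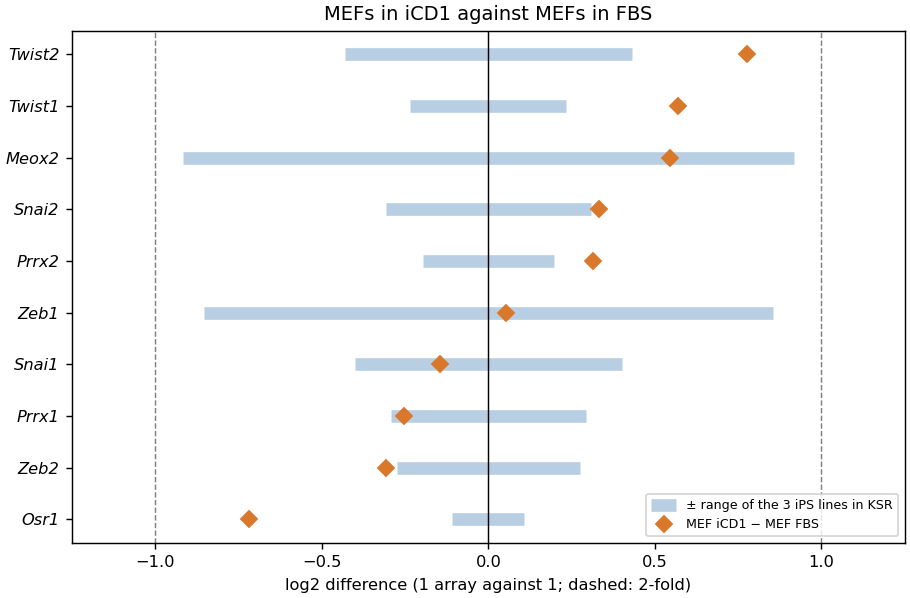
Log2 difference of MEFs in iCD1 minus MEFs in FBS for each factor (orange diamonds, 1 array against 1), with the range of the 3 iPS lines in KSR for the same gene drawn as a blue bar to either side of 0 and dashed lines at 2-fold. Twist2 (0.78) and Osr1 (-0.72) lie farthest from 0 on opposite sides, and no diamond reaches a dashed line.

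Of 34 other mesenchymal and EMT transcription factors measured, 22 fell and 0 rose in the KSR lines (limma, against 14.3% and 12.1% of all genes), with a median of -1.32. The largest were Tbx15, a T-box gene of limb and skin mesenchyme (-3.46 ± 0.18), the forkhead genes Foxd1 (-3.06 ± 0.14) and Foxc1 (-2.62 ± 0.22), and Runx1 (-2.25 ± 0.25). In iPS cells in 2i 15 fell, against 8.85% of all genes, and in ES cells 15 fell, against 7.46%. Snai3, the least studied Snail gene, was at -0.04 ± 0.16 and did not pass. The E-protein genes, whose products pair with Twist, differed from each other: Tcf12 fell by 2.15 ± 0.19 Tcf4 fell by 2.07 ± 0.11, and Tcf3 was at 0.12 ± 0.12. Tcf12 and Tcf4 were also 1.12 and 1.15 higher in MEFs in iCD1 than in FBS, the same pair of media in which Twist1 and Twist2 were higher in iCD1, and both reached 2-fold there. The E-proteins were singled out after their values were seen.

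Of 25 measured mesenchymal effector genes (matrix, receptors and cytoskeleton), 23 fell and 0 rose in the KSR lines (14.3% and 12.1% of all genes), with a median of -3.02. Tenascin C (Tnc) fell by 4.18 ± 0.57, and so did the PDGF receptor genes Pdgfra and Pdgfrb (-3.87 ± 0.25 and -3.44 ± 0.16) and the cadherin gene Cdh11 (-3.74 ± 0.20). N-cadherin (Cdh2) had 4.28, 5.29 and 5.11 in the KSR lines, against 7.75 in MEFs in iCD1 and 8.27 in MEFs in FBS, and fell by 3.12 ± 0.37. Vimentin (Vim), the intermediate filament gene of mesenchyme, fell by 2.26 ± 0.08. Of 20 upstream signalling genes 12 fell and 0 rose (14.3% and 12.1% of all genes), with a median of -0.96, among them the TGF-beta ligand genes Tgfb3 (-3.75 ± 0.19) and Tgfb2 (-3.70 ± 0.26), the receptor gene Tgfbr2 (-2.48 ± 0.20) and Bmp2 (-2.65 ± 0.13). Tgfb2 and Bmp2 had the largest medium differences of this list, 2.06 and 2.60 higher in MEFs in iCD1 than in FBS. Of 20 genes for cofactors and protein turnover 6 rose and 7 fell (12.1% and 14.3% of all genes), with a median of 0.29. The falls were led by Id2 (-2.43 ± 0.19), Id3 (-2.14 ± 0.09) and Id1 (-1.97 ± 0.20), whose products sequester E-proteins, and Lats2 (-1.65 ± 0.10), a Hippo pathway kinase.

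**Figure D4:**
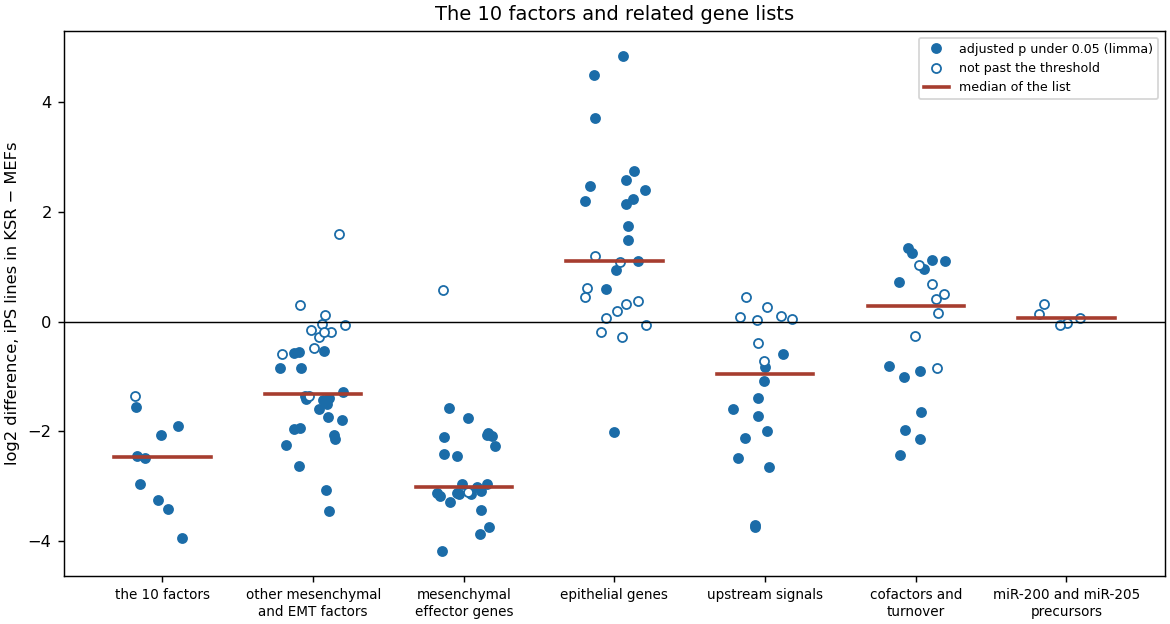
Log2 difference of iPS lines in KSR from MEFs (vertical axis) for the 10 factors and the measured genes of 6 related lists, 1 point per gene, filled where limma's adjusted p is under 0.05, with the median of each list as a red bar. The medians are -2.47 for the 10 factors, -1.32 for other factors, -3.02 for mesenchymal effectors, 1.11 for epithelial genes, -0.96 for upstream signals, 0.29 for cofactors and 0.06 for microRNA precursors.

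Epithelial genes, many of them known as targets that Snail and ZEB factors repress, lay on the other side. Of 27 measured, 15 rose and 1 fell in the KSR lines (12.1% of all genes rose), with a median of 1.11, 8 rose in iPS cells in 2i (6.24% of all genes) and 8 in ES cells (5.37%). E-cadherin (Cdh1) had 9.04, 8.97 and 9.28 in the KSR lines, 8.77 in iPS cells in 2i and 9.26 in ES cells, against 4.17 in MEFs in iCD1 and 4.35 in MEFs in FBS. All 5 pluripotent cultures lay close together and far above both MEF arrays. The cell adhesion gene Epcam rose by 4.50 ± 0.26, the splicing regulator gene Esrp1 by 3.70 ± 0.73 (limma, adjusted p = 0.0400) and the claudin gene Cldn6 by 2.73 ± 0.56 (adjusted p = 0.0427). The keratin gene Krt19 was the one that fell, by 2.00 ± 0.25.

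Esrp1 and the epithelial transcription factor gene Grhl2 were uneven across the same cultures as Zeb1. Both were picked for this after their values were seen. Esrp1 had 8.03 and 8.09 in O4-1 and O4-2 in KSR, 6.21 in O4-4, 6.20 in iPS cells in 2i and 5.46 in ES cells, against 3.80 in MEFs in iCD1 and 3.69 in MEFs in FBS. Grhl2 had 6.64, 6.43 and 5.43 in the KSR lines, 4.61 in iPS cells in 2i and 4.40 in ES cells, against 3.54 in MEFs in iCD1 and 3.85 in MEFs in FBS. For both genes O4-1 and O4-2 in KSR were the highest arrays, the ones on which Zeb1 was lowest. The epithelial list had no common order over the iPS and ES arrays. Among these arrays Cdh3, Epcam, Cldn6, Crb3, Ovol1, Krt18, Lsr and Mal2 were also highest on those of O4-1 and O4-2 in KSR. Llgl2, St14, Spint1 and Pkp3 were lowest there, and the rest of the list was neither. Relative to the KSR lines Esrp1 was at -1.24 ± 0.93 in iPS cells in 2i and -1.98 ± 0.93 in ES cells, and Grhl2 at -1.56 ± 0.56 and -1.76 ± 0.56, none past the threshold (limma, adjusted p = 0.571 to 0.803). With 5 cultures no relation across them was tested.

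**Figure D5:**
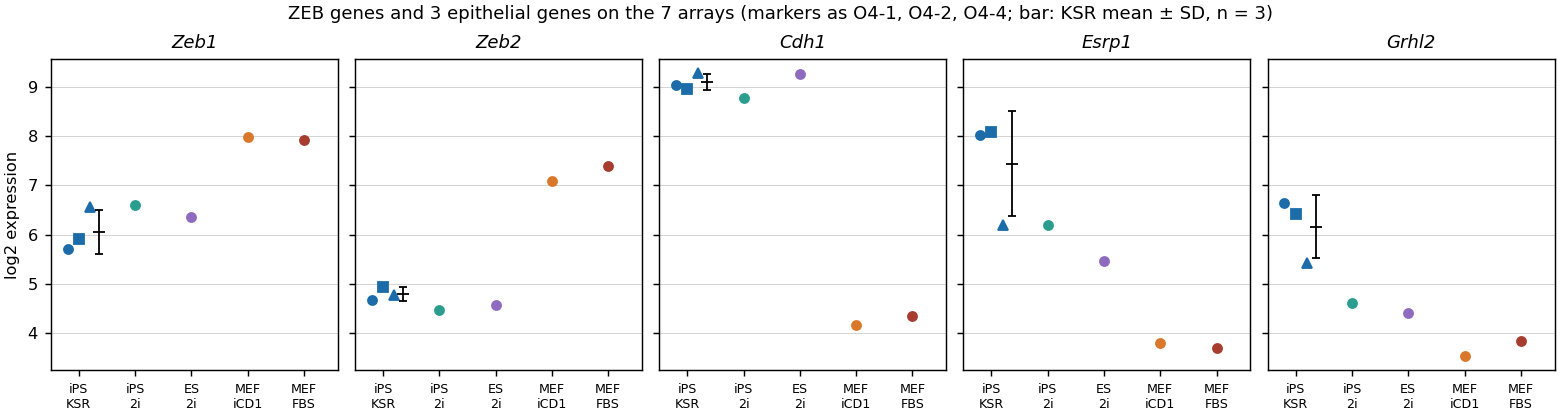
Log2 expression (vertical axis) of Zeb1, Zeb2, Cdh1, Esrp1 and Grhl2 on the 7 arrays, drawn as in the plot of the 10 factors (KSR mean ± SD, n = 3). Cdh1 stays between 8.77 and 9.28 on the iPS and ES arrays, while Esrp1 is at 8.03 and 8.09 in O4-1 and O4-2 in KSR and between 5.46 and 6.21 on the other 3.

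Among all other genes, those whose values followed Prrx1 most closely, by the root mean square distance of values centred on each gene's mean over the 7 arrays, were Pcdh18 (0.20), Dpysl3 (0.20), Ehd2 (0.22), Anxa5 (0.22) and Cd109 (0.22). Pcdh18, a protocadherin gene, had 4.09, 4.15 and 4.62 in the KSR lines, 4.00 in iPS cells in 2i and 4.07 in ES cells, against 8.15 in MEFs in iCD1 and 8.31 in MEFs in FBS. The mean of the 10 factors was followed most closely by Fosl2 (0.08), a Fos-family gene, then Sspn (0.11), Atrnl1 (0.12), Slc30a4 (0.12) and Fam102b (0.13). Fosl2 had 5.56, 5.93 and 5.91 in the KSR lines, 5.77 in iPS cells in 2i and 5.88 in ES cells, against 8.48 in MEFs in iCD1 and 8.32 in MEFs in FBS.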

How the data were processed

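Trizol was used to extract total RNA, of which 100 ng entered the Affymetrix whole transcript sense target assay, per the labels' protocols. The authors deposited log2 expression values, 1 per probe set. The submitters' processing notes name RMA and Partek, with neither version nor settings given. Array medians were 4.97 to 5.03. The number of arrays limits the precision, and no signal over background is given.

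Of 28853 probe sets, 21789 had 1 gene symbol in the platform annotation, 1621 had several and 5443 were unnamed here. Per gene the probe set with the highest mean over the 7 arrays was kept (19938 genes), with no filter. All pairs of arrays held different values. Groups were taken from titles and growth conditions.

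All genes were fitted in 1 model of 5 group means with R 4.3.3 and limma 3.58.1 (functions lmFit, contrasts.fit and eBayes). Tests were two-sided, p-values were adjusted by Benjamini and Hochberg's method across the 19938 genes, and the threshold was 0.05. The KSR lines gave 2 residual degrees of freedom and the prior 1.62, so a group of 1 array is assumed to vary like these lines. Whether the cultures were kept separately is not in the labels, so p-values cover only the spread between these 3 lines. The comparisons of the MEF media, of ES with iPS cells in 2i and of O4-1 in its 2 media set 1 array against 1 and have no test.

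The 10 genes and all lists were chosen with earlier results of these data known. Named were the 10, in each list of 12 or more genes other than the cell type markers the 4 largest differences past the threshold in the KSR lines, Cdh1, Cdh2 and Vim, and the 5 genes closest to Prrx1 and to the mean of the 10. Genes named outside this rule, Snai3, Tcf12, Tcf4, Tcf3, Krt19, Grhl2, Lsr, Mir200b and single markers among them, were chosen after their values were seen. Alternatives were the mean of all probe sets, quantile normalization, a filter on dim genes, a trended and robust prior, single MEF arrays, the MEF arrays as 1 group, 1 pluripotent group, a 1.5-fold threshold, and leaving out each KSR line. Protein sequences were not used here.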

Additional observations from a re-analysis of the deposited data

How the results depend on the processing

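The 10 factors kept the direction of their differences from MEFs under every alternative run. Leaving out 1 KSR line moved the number of factors called between 0 and 9 in the KSR comparison, and it was 0 to 0 in iPS cells in 2i and in ES cells. The numbers of all genes called then ran from 0 to 2776 in the KSR comparison, and were 0 to 0 in the other 2, against 5260, 3010 and 2559 with all lines. When the MEF array in iCD1 was left out, limma called 2968 genes in the KSR lines, 1394 in iPS cells in 2i and 956 in ES cells. Under the settings that kept all lines the factors called numbered 8 to 10 in the KSR lines, 8 to 9 in iPS cells in 2i and 7 to 10 in ES cells. The calls that changed there were those of Meox2, of Zeb1 and of Snai1 in ES cells. The filter on dim genes left 9 of the 10, without Meox2, and with it Zeb1 passed in iPS cells in 2i (adjusted p = 0.0473) and in ES cells (0.0343). At 1.5-fold 2 factors, not 0, differed between the MEF media, and 1, Meox2, between ES and iPS cells in 2i. The cause of these changes was not tested.

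Between pluripotent cultures some small differences, none of them called, changed sign. Relative to the KSR lines, Twist1 in iPS cells in 2i was at 0.042 with quantile normalization and between -0.081 and 0.036 with 1 line left out. With 1 line left out, Meox2 in iPS cells in 2i lay between -0.102 and 0.357 and Twist2 between -0.160 and 0.055. In ES cells Snai1 then lay between -0.159 and 0.041, Twist1 between -0.040 and 0.077 and Twist2 between -0.195 and 0.020. Twist1 in ES against iPS cells in 2i, 0.041 as deposited, was at -0.022 with quantile normalization.

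No paired analysis was possible because the groups share only 1 replicate number, that of line O4-1. The deposited values carry no detection calls, which limits Meox2 most.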

Other observations

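Some genes that carry out the mesenchymal programme differed between the MEF media. Of 25 effector genes 5 were 2-fold or more higher and 2 were 2-fold or more lower in MEFs in iCD1 than in FBS, on 1 array each and with no test, where 2.7% of all genes reached 2-fold in either direction. The matrix protease genes Mmp3 (2.11) and Mmp2 (1.29), the fibroblast surface protease gene Fap (1.87), Pdgfra (1.37) and the collagen gene Col3a1 (1.36) were higher in iCD1. Smooth muscle actin (Acta2) was at 10.54 in iCD1 and 12.48 in FBS, and the collagen cross-linking gene Lox at 9.14 in iCD1 and 10.50 in FBS. These genes were named after their values were seen.

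Among pluripotent cultures Acta2 had 6.19 in iPS cells in 2i and 6.18 in ES cells, against 8.18, 9.12 and 7.79 in KSR lines O4-1, O4-2 and O4-4. Its differences of -2.18 ± 0.59 in both did not pass (limma, adjusted p = 0.727 and 0.571). Vim was at 9.73, 9.73 and 9.72 in the KSR lines, 9.62 in iPS cells in 2i and 9.84 in ES cells, against 12.04 in MEFs in iCD1 and 11.94 in MEFs in FBS. The epithelial-to-mesenchymal factor gene Klf8 lay 1.60 ± 0.60 higher in the KSR lines than in MEFs and did not pass (limma, adjusted p = 0.148).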
